A study of Mus musculus with 4 samples.

Results

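The forkhead family is defined by a winged-helix DNA-binding domain and is named Fox in the mouse. The genes described here were chosen by symbol: every probe of the deposited intensity table whose platform annotation carried 1 of 40 forkhead symbols was taken. All 40 genes had a probe, among 19057 genes named on the array, and together they had 74 probes. Total RNA came from E14 cells, an established line of mouse embryonic stem cells that can form all tissues of the embryo and that was grown here with serum and LIF, the cytokine that holds them undifferentiated. Cells received ATRA (all-trans retinoic acid, the ligand of the retinoic acid receptors) or DMSO, its vehicle, for 2 hours, with 2 arrays of a single colour per group. The labels call the control DMSO in one field and untreated in another, and neither the ATRA dose nor whether the 2 arrays of a group are separate cultures is given in the sources used here. A p-value below therefore measures the spread of these 4 arrays alone, and that spread may be technical.

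Forkhead factors fall into classes with distinct work. FOXA proteins open closed chromatin in endoderm, FOXO proteins carry the output of insulin and AKT signalling to genes of stress, arrest and survival, FOXH1 brings SMAD proteins to NODAL target genes, and FOXM1 drives genes of mitosis. In embryonic stem cells FOXD3, FOXO1 and a splice form of FOXP1 are known for roles in pluripotency. Retinoic acid starts differentiation of these cells, and several forkhead genes belong to the endoderm, mesoderm and neural programmes that follow.

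The array values are deposited intensities on a linear scale, and a probe counted as detected where its deposited detection p-value was under 0.05. That limit lay at an intensity of 104.4 to 106.3, and 40.1% to 42.3% of the 45281 probes were detected per array. Of the embryonic stem cell markers, 9 of 10 had a probe and all 9 were detected on all 4 arrays. Summed, they read 44890 and 46510 with DMSO against 44040 and 44570 with ATRA. Of the 9, 2 passed a threshold of 0.05 on the adjusted p, against 1.82% of all measured genes. These were Sox2 and Zfp42, which fell by 0.39 and 0.40 on the log2 scale (limma adjusted p = 0.019 and 0.0041). The dimmer probe of Sox2 did not pass, with a change of -0.23 and overlapping groups (limma adjusted p = 0.51). By their brightest probes Nanog, Tdgf1, Pou5f1 and Dppa5a had changes of 0.20, 0.14, 0.04 and 0.02. Klf4, Esrrb and Utf1 had changes of -0.16, -0.15 and -0.05. None of these passed, and the groups did not overlap by either probe of Nanog. Of 10 fibroblast markers, 6 were detected on all 4 arrays (summed 1767 to 1856 with DMSO, 1658 to 1754 with ATRA), while Col1a2, Lum, Postn and S100a4 were detected on 0. Most of that sum was Fn1, at 1202 on DMSO replicate 1. Of 8 primitive endoderm markers 4 were detected on all 4 arrays, with Sox17 and Pdgfra on 0 (summed 1302 to 1322 with DMSO, 1299 to 1307 with ATRA). Of 8 early neural markers and 6 streak markers with a probe, 1 each was detected on all 4 arrays. The neural sum, of Nes and Tubb3 alone, was 257.1 to 273.9 with DMSO and 265.1 to 278.4 with ATRA. Pax6, Sox1, Zic1, Hes5, Olig2 and Neurog2 were detected on 0 arrays. All these sums are of intensities before background correction, so each probe adds its background to them. The only streak marker measured, Evx1, fell by 0.66 on the log2 scale (limma adjusted p = 0.024). The part of other cell types in the results below was not tested, and in bulk RNA fewer cells of a type and less RNA per cell cannot be told apart.

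About as many forkhead genes were detected as genes in general. On both DMSO arrays 18 of the 40 had a probe detected, against 50.1% of all named genes, and on both ATRA arrays 19 did, against 49.6%. By at least 1 probe 17 were detected on all 4 arrays, against 48.2% of all named genes: Foxa3, Foxh1, Foxj1, Foxj2, Foxj3, Foxk1, Foxk2, Foxm1, Foxn2, Foxn3, Foxn4, Foxo1, Foxo3, Foxp1, Foxp3, Foxp4 and Foxr2. Detection was uneven over the classes: all members of the FOXJ and FOXK classes, with Foxh1 and Foxm1, were detected on all 4 arrays, and 0 of the 4 FOXD genes on any. At a stricter detection p of 0.01 the counts were 15 with DMSO, against 44.3% of all named genes, and 16 with ATRA, against 44.6%.

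**Figure D1:**
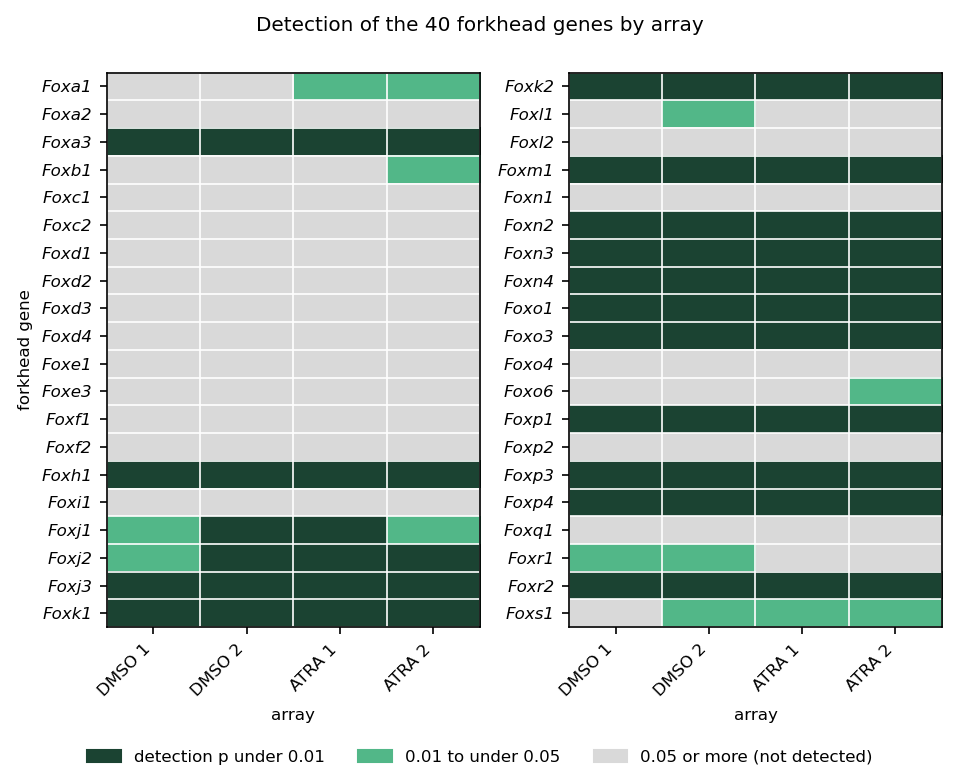
Detection of each of the 40 forkhead genes (rows) on the 2 DMSO and 2 ATRA arrays (columns), by the most often detected probe of each gene, with dark green for a detection p under 0.01, light green for 0.01 to under 0.05 and grey for not detected. The 17 genes with a full green row were detected on all 4 arrays, Foxa1 was detected on the ATRA arrays and Foxr1 on the DMSO arrays.

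Foxa1, Foxr1 and Foxs1 were detected on 2 or 3 arrays. With them 20 of the 40 genes had a probe detected on at least 2 arrays, against 53.5% of all named genes. Of the other 20 genes, 17 were detected on 0 arrays and 3 on 1 array, with intensities of 83.1 to 110.9. Foxd3, a factor needed to maintain the epiblast and its stem cells, read 98.1 and 95.8 with DMSO and 93.8 and 96.1 with ATRA, below the detection limit each time. It had 1 probe, and a probe that detects nothing does not show that the transcript is absent. Foxd1, Foxd2 and Foxd4 of the same class were likewise undetected. So was the endoderm pioneer factor Foxa2, whose 2 probes read 85.3 to 93.4.

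Among genes of mesoderm and its derivatives, Foxc1, Foxc2, Foxf1, Foxf2, Foxq1 and the ovarian factor Foxl2 were detected on 0 arrays. Foxl1, a factor of gut mesenchyme, was detected on DMSO replicate 2 alone at 106.1. Among genes of the placodes, the pharynx and the brain, the lens factor Foxe3, the thyroid factor Foxe1 and the inner ear factor Foxi1 were detected on 0 arrays. Foxb1, of the diencephalon, was detected on ATRA replicate 2 alone by 1 of 2 probes, at 106.6, and Foxo6 by 1 of 3 probes on the same array at 110.9. Foxo4, Foxp2 and the thymic epithelial factor Foxn1 complete the undetected genes. The 4 probes of Foxp2, a factor of the developing brain, read 86.9 to 98.9.

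Changes were measured for the 20 genes with a probe detected on at least 2 arrays, by 31 probes. Values were background-corrected, and changes are given as ATRA minus DMSO on a log2(value + 16) scale, which understates changes of dim probes. A gene is given by its brightest kept probe unless another is named. Foxa1 and Foxr1 were kept through the arrays of 1 group only, so their groups had to differ in detection. With limma, 1 of the 20 genes passed the threshold of 0.05 on the adjusted p, a rise, against 1.82% of all 10194 measured genes in either direction and 1.46% upward. By any kept probe 2 genes passed, with 2 of 31 probes against 1.58% of all kept probes. Of the 20 genes 0 fell, against 0.363%, and at an unadjusted p under 0.05 there were 4 genes, against 12.4% of all measured genes. The ATRA and DMSO arrays did not overlap for 12 of the 20 (7 higher, 5 lower), against 41.2% of all measured genes (20.2% higher, 21% lower). By probe, 20 of 31 did not overlap, against 40.8% of all kept probes. Among the 18 genes detected in both groups, which leaves out Foxa1 and Foxr1, 10 did not overlap (6 higher, 4 lower), against 40.1% of all such genes. Of these 18, 3 had an unadjusted p under 0.05, against 12.1%. The median change was 0.08 over the 20 genes and -0.004 over all measured genes, and the median absolute change was 0.11 against 0.097.

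**Figure D2:**
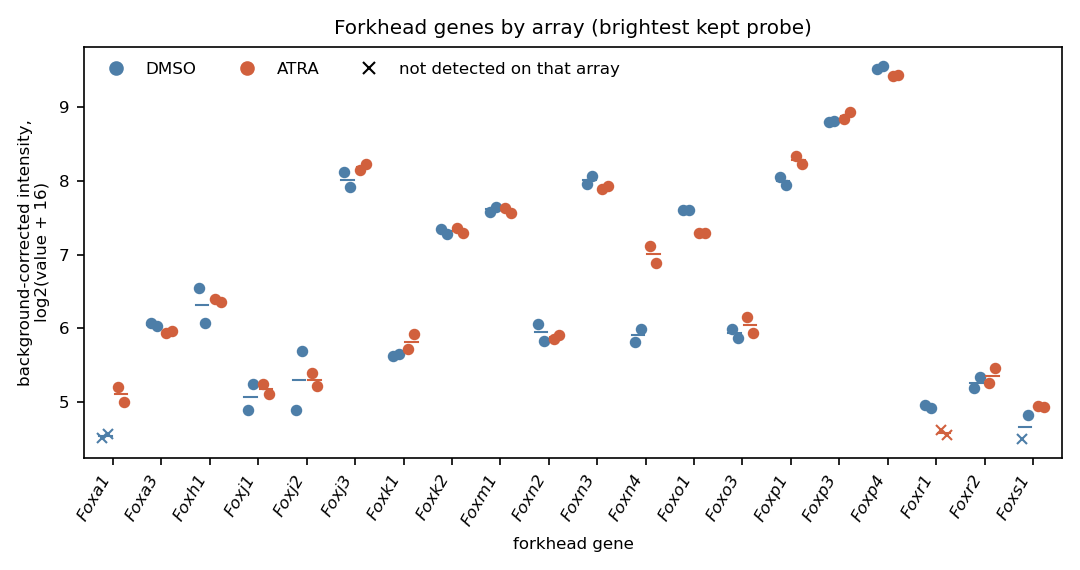
Background-corrected intensity, log2(value + 16), of the 20 measured forkhead genes on each array, with blue for DMSO, orange for ATRA, lines for group means and crosses for arrays on which the probe was not detected. Each gene is to be read within itself, since levels of different probes cannot be compared; Foxn4 has the widest gap between groups.

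Foxn4 rose with ATRA. This gene encodes a factor of retinal progenitors and of spinal interneuron precursors. Its probe read 133.95 and 141.5 with DMSO, then 217.0 and 196.6 with ATRA. It was detected on all 4, and both ATRA arrays lay above both DMSO arrays. The mean log2 value went from 5.91 ± 0.13 to 7.01 ± 0.16 (SD, n = 2), a 2.15-fold rise (95% interval 1.80 to 2.57; change 1.10, SE 0.12, limma adjusted p = 5.7e-06). The rise passed with any single array left out, with changes of 0.99 to 1.22. Its size depended on the background correction: it was 0.59 without correction and 0.79 with an offset of 50. Foxn4 had 1 probe, so no second probe tests it.

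The genes that flank Foxn4 did not pass. In the order of protein-coding genes of the RefSeq table, Acacb lies next to it on 1 side, with a change of 0.13 (limma adjusted p = 0.70), and Ung beyond that, with changes of -0.31, 0.28 and -0.05 by its 3 probes. On the other side Myo1h had no kept probe and Kctd10 had a change of -0.12 (adjusted p = 0.68).

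The sequence before the start of Foxn4 is shown because this is the gene that rose. It was searched on both strands for AGGTCA, a half-site that retinoic acid receptors can bind. Its variants GGGTCA (counted alone and with the others), AGTTCA (counted only with the others) and GGTTCA (counted likewise) were searched too. TGTTTAC, a core that forkhead proteins can bind, was searched as well. RefSeq (GRCm38.p6) held windows for 25 of the 40 genes, 30 in all, of 250 bases before to 50 after each start. The 250 bases before the start of Foxn4 are chr5:114273762-114274011, minus strand, with matches in capitals:
Foxn4: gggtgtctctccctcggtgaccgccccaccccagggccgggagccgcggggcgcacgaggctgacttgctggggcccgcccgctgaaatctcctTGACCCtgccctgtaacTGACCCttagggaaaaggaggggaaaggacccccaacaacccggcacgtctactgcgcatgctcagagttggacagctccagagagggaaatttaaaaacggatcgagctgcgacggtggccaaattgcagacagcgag
The window held GGGTCA at 2 places, both read on the opposite strand and beginning at -156 and -139 from the start. A GGGTCA stood in 13.7% of all 32851 promoter windows and at 2 or more places in 1.35%. AGGTCA stood in 4 of the 30 forkhead windows, against 16.3% of all windows, and that of Foxn4 was not among the 4. The forkhead windows held GGGTCA in 7 of 30 and any of the 4 half-sites in 12 of 30, against 43.7% of all windows. Direct repeats of any of these half-sites with a spacing of 5, 2 or 1 bases stood in 0 of the 30, and in 0.0974%, 0.268% and 0.222% of all windows. The 3 half-sites other than AGGTCA were added after the values were seen. A match is a description of letters, and these windows cover little of a gene's regulatory sequence.

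Foxp1 was higher by both of its probes, and 1 of them passed. FOXP1 is a repressor that pairs through a leucine zipper. The brighter probe read 342.7 and 325.4 with DMSO and 400.9 and 379.3 with ATRA, a change of 0.29 (SE 0.10, 95% interval 0.09 to 0.48) that missed the threshold (limma adjusted p = 0.18). The dimmer probe, which the annotation ties to another transcript record, read 119.2 and 130.1 with DMSO and 148.9 and 144.1 with ATRA. By it Foxp1 rose 1.47-fold (change 0.56, SE 0.14, adjusted p = 0.044). On both probes the groups did not overlap. Under 8 of 12 other settings the dimmer probe missed the threshold. It did so without DMSO replicate 1 (change 0.39, adjusted p = 0.16), ATRA replicate 1 (0.51, 0.38) or ATRA replicate 2 (0.61, 0.15), and also without background correction (0.23, adjusted p = 0.054), without the intensity trend (adjusted p = 0.16) and with floored series matrix values (adjusted p = 0.43). The other losses were with no filter on dim probes (adjusted p = 0.12) and with a detection p under 0.01 required (adjusted p = 0.055). Averaged over both probes and fitted among gene averages, Foxp1 had a change of 0.42 (adjusted p = 0.026). The nearest measured neighbours, Mitf and Eif4e3, had changes of -0.32 and -0.11 (adjusted p = 0.55 and 0.88).

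The other FOXP genes did not pass. Foxp3, known as the master regulator of regulatory T cells, was detected by 1 of its 4 probes, which read 522.9 and 526.1 with DMSO and 536.1 and 568.1 with ATRA (change 0.09, limma adjusted p = 0.80). Its other 3 probes were detected on 0 arrays, so the probes of this gene disagree on its detection. Foxp4, a relative of Foxp1, had 3 kept probes. The brightest read 812.4 and 836.1 with DMSO and 763.9 and 774.1 with ATRA, without overlap. The 3 had changes of -0.11, 0.05 and -0.23 (adjusted p = 0.57 to 0.91), so that the probes differed in sign.

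**Figure D3:**
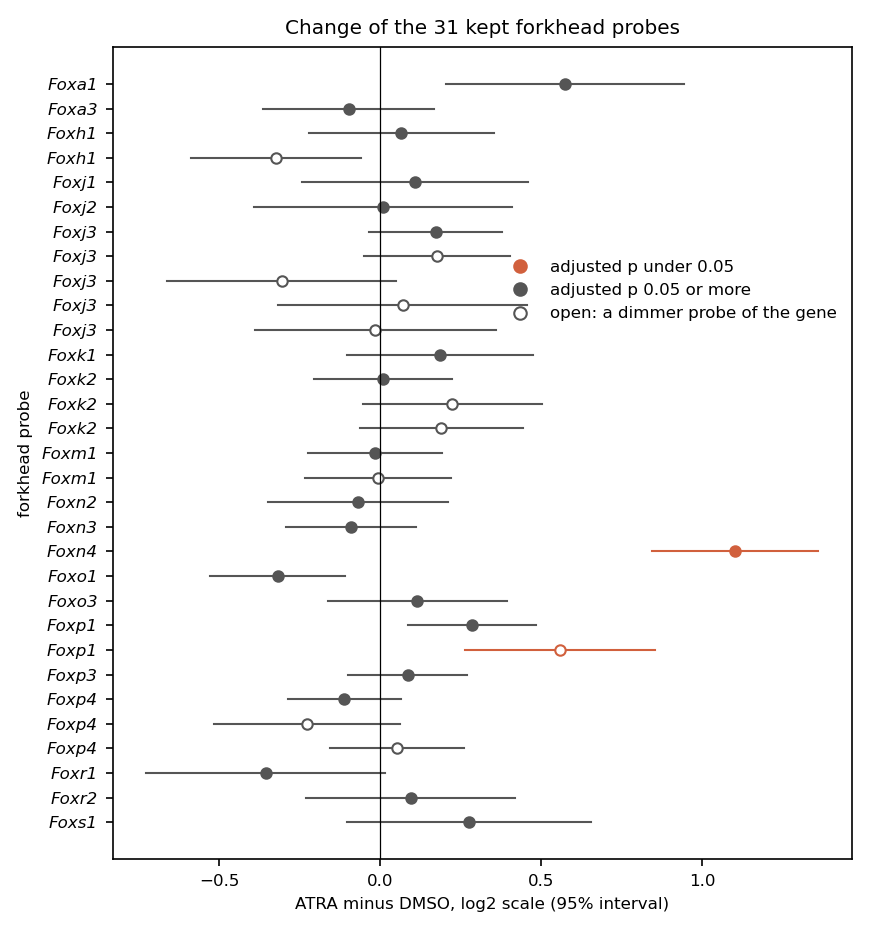
Change with ATRA (log2 scale, x axis) of the 31 kept forkhead probes (rows) with 95% intervals, open points for dimmer probes of a gene and orange for an adjusted p under 0.05. Foxn4 at 1.10 and the dimmer probe of Foxp1 at 0.56 are orange; the probes of Foxh1, Foxj3 and Foxp4 lie on both sides of 0, and the points of Foxa1 and Foxr1 are set against a group that was not detected.

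FOXO1, a factor that AKT keeps out of the nucleus and that stem cells need for pluripotency gene expression, had the closest replicates of the 20 measured genes. Foxo1 read 273.5 and 273.4 with DMSO, then 234.6 and 234.8 with ATRA, and the groups did not overlap. The change was -0.32 (SE 0.10, 95% interval -0.53 to -0.11), and it missed the threshold over all probes (limma adjusted p = 0.14). The SE draws on the variance of all kept probes and was far wider than the gene's own SDs (0.00054 with DMSO, 0.0014 with ATRA). The change stayed between -0.35 and -0.22 under 13 other settings and did not pass under any of them. Its other probe lay at the detection limit, at 102.6 to 105.0, and was not kept. Foxo3, which shares many targets with Foxo1, was detected by 1 of 3 probes. It read 141.3 and 136.2 with DMSO and 149.1 and 138.8 with ATRA, with overlap, and had a change of 0.12 (adjusted p = 0.82).

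Among genes that control FOXO activity, SGK kinases, PI3K subunits, insulin and IGF receptors, acetyltransferases and 14-3-3 proteins were measured. The AKT genes had no kept probe. Of the 19 measured genes 0 passed with limma and 3 had an unadjusted p under 0.05, near the 1.82% and 12.4% of all measured genes. The median change was -0.03. The largest changes were those of the PI3K catalytic subunit gene Pik3ca (-0.31, adjusted p = 0.38), the acetyltransferase gene Crebbp (-0.30, adjusted p = 0.36) and the kinase gene Sgk3 (0.21, adjusted p = 0.43). The dimmer probes of Crebbp (-0.22 and 0.12) and of Sgk3 (-0.22, -0.20 and -0.04) differed in sign. Without DMSO replicate 1 Sgk1 passed (-0.41, adjusted p = 0.00082), and without DMSO replicate 2 Crebbp did (-0.49, adjusted p = 0.018). Sgk1, named here after its values were seen, read 2884 and 3855 with DMSO and 2849 and 2981 with ATRA.

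Of 21 measured genes known as FOXO targets 4 rose and 1 fell, which is 23.8% against 1.82% of all measured genes. The list was chosen with earlier results of these data known, so this share is no test of FOXO targets as a set. Other factors are known to regulate these genes too. The stress gene Gadd45b rose 1.74-fold (116.4 and 133.4 with DMSO, 153.7 and 163.4 with ATRA, limma adjusted p = 0.0042), and its other probe had a change of 0.21 (adjusted p = 0.71). Sesn1, a sestrin that restrains mTORC1, rose 1.45-fold (225.5 and 256.7 against 321.3 and 304.6, adjusted p = 0.0075), and its other probe rose too (0.48, adjusted p = 0.024). Bcl2l11, which encodes the death protein BIM, rose 1.42-fold (209.5 and 207.1 against 256.4 and 271.4, adjusted p = 0.0083), with 0.43 and 0.14 by its other probes (adjusted p = 0.10 and 0.83).

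Txnip, an inhibitor of thioredoxin and glucose uptake, rose 1.32-fold (1030 and 1053 against 1335 and 1361, limma adjusted p = 0.0074), and by its other probe as well (0.44, adjusted p = 0.0089). Cited2, a transcriptional co-regulator, fell by 0.34 (785.1 and 811.4 against 622.0 and 671.9, adjusted p = 0.046); of its other probes 1 fell by 0.58 (adjusted p = 0.017) and the other had a change of -0.37 (adjusted p = 0.13). On all 5 genes, picked here for passing, the groups did not overlap, as they did not for 41.2% of all measured genes. The list's median change was 0.08 and 11 of 21 were higher. The largest changes that did not pass were those of Pdk4 (0.48), Klf6 (-0.35) and Tnfsf10 (0.19).

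Some of these calls depended on a single array. Without ATRA replicate 1 Cited2, Sesn1 and Txnip missed the threshold (limma adjusted p = 0.64, 0.14 and 0.098) and Klf6 passed (-0.46, adjusted p = 0.049), as it did without DMSO replicate 2 (-0.53, adjusted p = 2.4e-05). Without DMSO replicate 1 Pdk4 passed (0.54, adjusted p = 0.040). Without ATRA replicate 2 Bcl2l11, Cited2 and Txnip missed it (adjusted p = 0.23, 0.15 and 0.15). Gadd45b passed with any single array left out, and without the intensity trend 0 of the 5 passed.

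**Figure D4:**
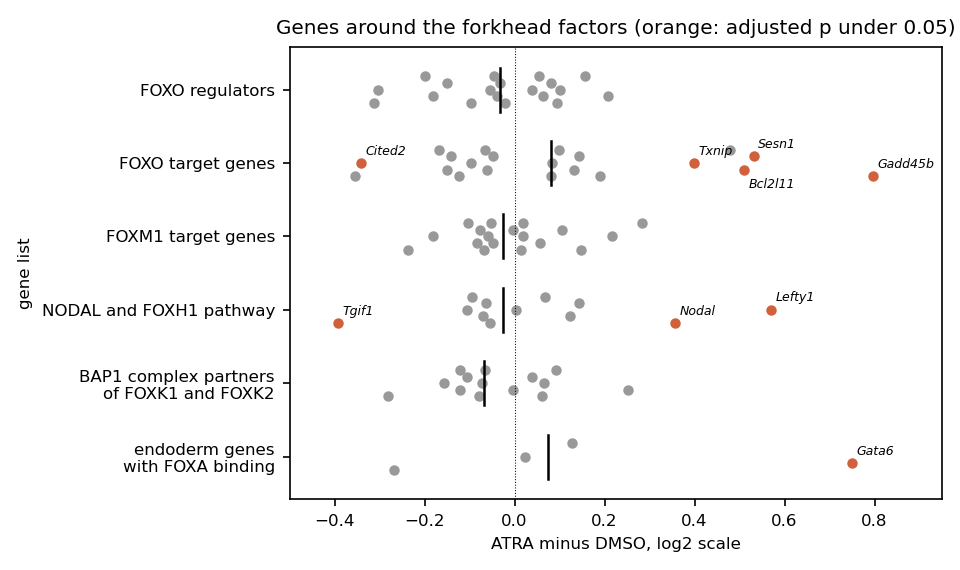
Change with ATRA (log2 scale, x axis) of the measured genes of 6 lists around the forkhead factors (rows), 1 point per gene by its brightest kept probe, black bars for list medians and orange for an adjusted p under 0.05. The called genes lie in the FOXO target, NODAL and endoderm lists, and the list medians lie between -0.07 and 0.08. The lists were chosen with earlier results of these data known, so their shares of called genes are descriptions only.

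Foxa1 was detected with ATRA and not with DMSO. FOXA1 opens chromatin for other factors in endoderm. Its 1 probe read 97.7 and 99.3 with DMSO, below the detection limit, and 114.65 and 109.7 with ATRA, above it. The mean log2 values were 4.53 ± 0.04 and 5.11 ± 0.14 (SD, n = 2). Against the lowest detected signal the ATRA mean was 1.24-fold higher, a bound without sampling error. The difference did not pass (limma adjusted p = 0.13), and the detection p with ATRA was 0.010 and 0.019. When either ATRA array was left out the gene was no longer kept.

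The window before Foxa1 is shown because it was the 1 forkhead window with the core TGTTTAC, which stood in 3.65% of all windows. It was chosen after the values were seen. The 250 bases are chr12:57546112-57546361, minus strand, GRCm38.p6 from RefSeq, with GGGTCA and the core, read on the opposite strand, in capitals:
Foxa1: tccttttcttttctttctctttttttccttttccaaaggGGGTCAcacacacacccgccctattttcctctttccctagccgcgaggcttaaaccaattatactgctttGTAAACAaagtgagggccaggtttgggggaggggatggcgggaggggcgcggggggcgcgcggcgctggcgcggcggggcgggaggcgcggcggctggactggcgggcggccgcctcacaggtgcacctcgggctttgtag

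Foxa3, a further member of the FOXA class, was detected on all 4 arrays (144.8 and 143.1 with DMSO, 139.2 and 140.1 with ATRA) and had a change of -0.10 (limma adjusted p = 0.85). The list of endoderm genes bound by FOXA factors was chosen with earlier results of these data known, so its share is a description only. Of its 14 genes 13 had a probe, 4 were measured and 1 rose (25% of 4, against 1.82% of all measured genes). It was Gata6, a factor of primitive endoderm, at 100.01 and 107.8 with DMSO, of which the first was not detected, and 130.5 and 116.7 with ATRA (1.68-fold, limma adjusted p = 0.027). It missed the threshold without DMSO replicate 1 (adjusted p = 0.082) or ATRA replicate 1 (0.62). Its other probe was detected on 0 arrays, at 100.46 and 101.4 with DMSO and 93.0 and 95.6 with ATRA. Dab2, Cdh2 and Hnf4a had changes of -0.27, 0.13 and 0.02, and the summed primitive endoderm markers overlapped between groups (1302 to 1322 with DMSO, 1299 to 1307 with ATRA). Most of that sum was Col4a1 and Lama1 (512.0 and 435.7 on DMSO replicate 1), so it could hardly show a change of a dim gene such as Gata6.

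FOXH1, the SMAD partner of the NODAL pathway, gave readings that depended on the probe. By the brighter probe of Foxh1 the values were 171.7 and 144.9 with DMSO and 162.3 and 159.4 with ATRA, a change of 0.07 (limma adjusted p = 0.92). The ATRA values lay between those of DMSO. By the dimmer probe, tied to the same transcript record, they were 156.0 and 169.3 with DMSO and 148.1 and 142.7 with ATRA, without overlap (change -0.32, SE 0.13, adjusted p = 0.29). The averaged probes had a change of -0.13 (adjusted p = 0.67).

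Of 12 measured genes of the NODAL and FOXH1 pathway 2 rose and 1 fell (25%, against 1.82% of all measured genes). This list too was chosen with earlier results of these data known, so the share is no test of the pathway. The ligand gene Nodal (1117 and 1052 with DMSO, 1388 and 1345 with ATRA) and its feedback inhibitor Lefty1 (941.0 and 819.3, then 1299 and 1234), both known FOXH1 targets, rose 1.28-fold and 1.49-fold (limma adjusted p = 0.021 and 0.00043). The SMAD co-repressor gene Tgif1 fell by 0.39 (746.6 and 666.4, then 551.9 and 560.1, adjusted p = 0.022). Their dimmer probes did not pass: 0.29 for Nodal, -0.38 and -0.10 for Tgif1. The co-receptor gene Tdgf1 had a change of 0.14, Smad2 one of 0.12 and Gdf1 one of -0.11. Lefty2 of the same list, named here after its values were seen, read 375.0 and 367.8 with DMSO and 357.2 and 360.7 with ATRA. Its change was -0.06 (limma adjusted p = 0.88). The list's median change was -0.03 and 6 of 12 were higher. Without ATRA replicate 1 Nodal and Tgif1 missed the threshold (adjusted p = 0.34 and 0.25), as they did without ATRA replicate 2 (0.16 for each), and Tgif1 without DMSO replicate 1 (0.066). Lefty1 passed with any array left out, and without the intensity trend 0 of the 3 passed.

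FOXM1, the factor of mitotic gene expression, gave closely matching probes. The brighter probe of Foxm1 read 269.6 and 278.8 with DMSO and 276.7 and 267.8 with ATRA, with overlap. The change was -0.01 by each probe (limma adjusted p = 0.98 and 0.99), and the 95% interval of the brighter probe was -0.22 to 0.19. Of 18 measured FOXM1 target genes 0 passed with limma and 2 had an unadjusted p under 0.05, near the 1.82% and 12.4% of all measured genes. The median change was -0.03. Cenpb and Cdk1 had changes of -0.24 and 0.22 (adjusted p = 0.23 for each). Cks1b was detected on both ATRA arrays and on 0 of the DMSO arrays. It was kept through the ATRA arrays only, so its groups had to differ in detection. Against the lowest detected signal it was 1.08-fold higher, a bound without sampling error. The fitted fold had a 95% interval of 0.94 to 1.58 (limma adjusted p = 0.59). Without DMSO replicate 2 the kinase gene Cdk1 and the kinesin gene Kif20b passed (0.26 and 0.33, adjusted p = 0.050 and 0.018); Kif20b is named here after its values were seen.

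Foxk1 and Foxk2 encode repressors that recruit the deubiquitinase BAP1 and SIN3. Foxk1 was detected by 1 of 4 probes, at 126.9 and 127.8 with DMSO and 130.4 and 138.3 with ATRA, and had a change of 0.19 (limma adjusted p = 0.68). The brightest probe of Foxk2 read 241.2 and 233.6 with DMSO and 242.8 and 234.0 with ATRA, with overlap. Foxk2 had changes of 0.01, 0.19 and 0.22 by its 3 probes, of which the last 2 did not overlap between groups and none passed (adjusted p = 0.56 to 0.99). Of 14 measured partners 0 passed with limma and 1 had an unadjusted p under 0.05, where 1.82% and 12.4% of all measured genes did. The median change was -0.07. The largest changes were those of Asxl2 (-0.28), Mbd6 (0.25) and Sin3a (-0.16).

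Foxj3 showed how far probes of 1 gene can differ. Its brightest probe read 355.7 and 319.8 with DMSO and 361.2 and 379.5 with ATRA, without overlap (change 0.17, limma adjusted p = 0.54). The next brightest had a change of 0.18 and the 3 others, at 102.5 to 127.1, had changes of -0.01, 0.07 and -0.31. Foxj1, the regulator of motile cilia, read 107.2 and 115.4 with DMSO and 115.5 and 112.2 with ATRA (change 0.11). Foxj2 read 107.2 and 129.4 with DMSO and 119.7 and 114.7 with ATRA. Its change was 0.01, and its DMSO replicates lay farther apart than those of any other measured forkhead gene (SD 0.57 on the log2 scale, against a median of 0.072 over the 20 genes).

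The remaining members were near the detection limit or had small changes. Foxn2, a relative of Foxn4, read 144.4 and 134.6 with DMSO and 135.4 and 137.5 with ATRA, with overlap (change -0.07, limma adjusted p = 0.91). Foxn3, a repressor of cell cycle genes, was detected by 1 of 3 probes. It read 326.3 and 345.2 with DMSO and 316.4 and 323.2 with ATRA, without overlap (change -0.09, adjusted p = 0.80). Foxr1 was detected on both DMSO arrays, at 108.7 and 107.7, and on 0 of the ATRA arrays, at 100.7 and 99.1. It was at least 1.08-fold lower (log2 means 4.94 ± 0.03 and 4.58 ± 0.04, SD, n = 2) and did not pass (adjusted p = 0.46). Foxr2, whose human protein binds MYC, read 114.2 and 118.0 with DMSO and 115.8 and 121.7 with ATRA, with overlap (change 0.09, adjusted p = 0.89). Foxs1, a gene of perivascular cells, read 97.5, not detected, and 105.5 with DMSO and 108.3 and 107.9 with ATRA, and had a change of 0.28 (adjusted p = 0.62).

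**Figure D5:**
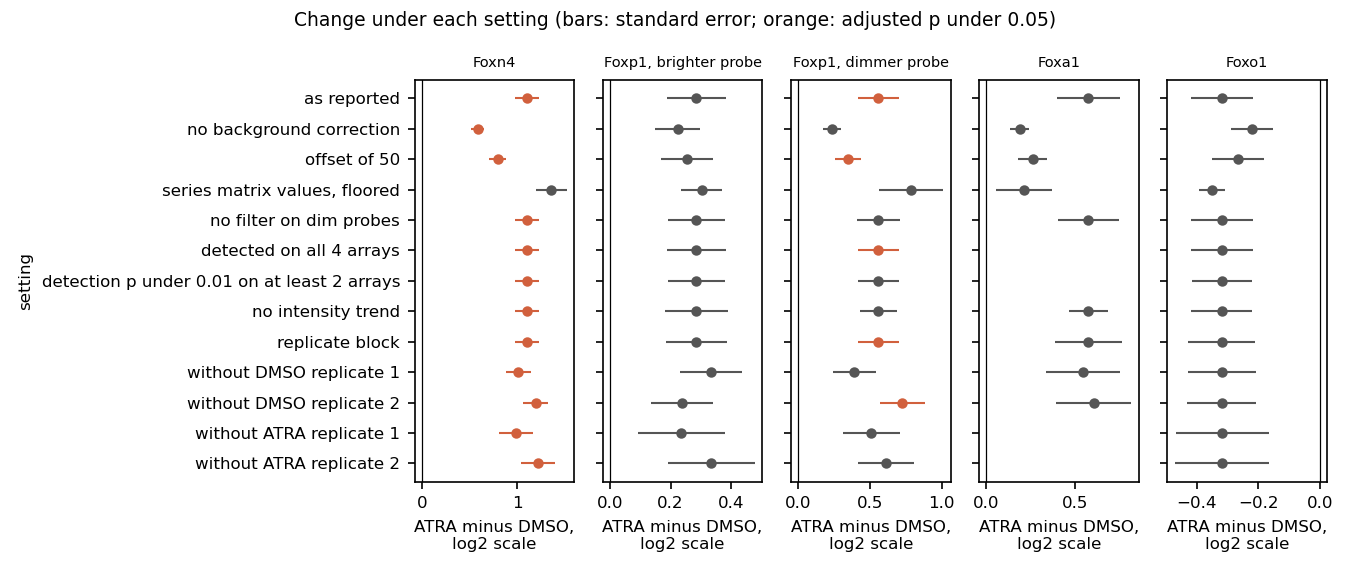
Change with ATRA (log2 scale, x axes) of Foxn4, both probes of Foxp1, Foxa1 and Foxo1 under each setting (rows), with bars for standard errors and orange for an adjusted p under 0.05; settings under which a probe was not kept have no point, and Foxa1 is set against DMSO arrays that did not detect it. Foxn4 is orange in 12 of 13 rows, and the dimmer probe of Foxp1 in 5.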

How the data were processed

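Per the labels, RNA of 2 DMSO and 2 ATRA samples went onto single-colour Illumina arrays. GenomeStudio is named in the submitters' processing notes, with no version in the sources used here. The authors deposited an intensity and a detection p-value for every probe and array, per the file headers. Sorted, these intensities differed by at most 0.228 between arrays and so had been quantile normalized before deposit, which removes any shift shared by most probes. Subtracting 93.52 from them gives the values of the series matrix.

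Values were corrected with limma 3.58.1 in R 4.3.3 (neqc with control spots estimated from detection p-values, an offset of 16, quantile scaling and log2). Probes detected (p under 0.05) on at least 2 arrays were kept, 19112 of 45281. The groups were tested by lmFit, then eBayes allowing an intensity trend, with adjustment by Benjamini-Hochberg over all kept probes. Adjusted p-values are from this fit unless another setting is named beside them. A run was made on data simulated from the variance model of this fit. That run assumes the model, so it does not test whether the model holds for these 4 arrays. With 2 against 2 arrays, exact permutation of 1 gene cannot pass the threshold and was not used. Undetected groups are given as bounds against the lowest detected signal per array, without sampling error.

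Of 34885 probes with 1 symbol, 34807 matched the RefSeq table (GRCm38.p6), with 0 renamed. Every forkhead gene is accounted for; of each list the genes past the threshold and the 3 next largest changes are named. Members and lists were chosen with earlier results of these data known. Promoter letters were searched with Python 3.11.15. Arrays with the same replicate number showed no shared deviation (correlation of same-numbered deviations -0.003 over kept probes). This cannot show whether they came from 1 culture or day, and the main fit did not pair them. Alternatives covered background, offset, filter, variance model, left-out arrays and a replicate block.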

Additional observations from a re-analysis of the deposited data

How the results depend on the processing

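Over all probes, 302 passed the threshold. The count was 74 without the intensity trend, 492 with the replicate block (339 higher, 153 lower) and 133 to 956 with 1 array left out. With the series matrix values floored at 16 it was 0 in limma, with 2128 at an unadjusted p under 0.05. Of the kept probes 893 lay at that floor on all 4 arrays, with no variance, and the same setting gave 0 forkhead genes, 0 FOXO targets, 0 NODAL pathway genes and 0 endoderm genes. Foxn4 then had a change of 1.36 (adjusted p = 0.26). In the fit as reported, 2 forkhead genes passed by any kept probe in place of the brightest. Without the trend the FOXO target, NODAL and endoderm lists had 0, and the endoderm list had 0 with no filter and 0 when detection on all 4 arrays was required. With 1 array left out, the FOXO targets numbered 2 to 6, NODAL pathway genes 1 to 3, endoderm genes 0 to 1, FOXM1 targets 0 to 2 and FOXO regulators 0 to 1. The cause was not tested. Of 272 forkhead changes under other settings 248 kept direction and side of the threshold, 9 lost and 1 gained a call and 14 changed sign, none of them past the threshold.

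Sign changes were as follows. Foxj2 was at -0.0072 without background correction, -0.0083 with an offset of 50 and -0.024 with floored values, and Foxh1 at -0.13 over averaged probes. With 1 array left out, changes ran from -0.39 to 0.41 for Foxj2, -0.18 to 0.31 for Foxh1, -0.063 to 0.28 for Foxj1, -0.031 to 0.048 for Foxk2, -0.048 to 0.019 for Foxm1, -0.18 to 0.046 for Foxn2, -0.0089 to 0.20 for Foxr2, -0.017 to 0.13 for Cdh2, -0.016 to 0.060 for Hnf4a and -0.0028 to 0.38 for Tnfsf10. Whether the replicate block matches a pairing of samples is not known here. Apart from the count over all probes it moved no list by over 1.5 times, and Pdk4 and Klf6 passed under it (limma adjusted p = 0.041 and 0.0056). Foxa1, Foxr1 and Foxs1 gave no value where they were not kept or lay at the floor. Few detected probes and 2 arrays a group limit what can be seen of genes near the detection limit.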
